A study of Mus musculus with 2 samples.

Results

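The S100 genes S100a8, S100a9, S100a7a, S100a4, S100a6, S100a10, S100a11 and S100a14, were followed across the cells of the mouse cornea before and after an epithelial wound. They were chosen by name and make up 8 of the 20198 genes of the count table. The data are single-cell RNA-seq counts, in which every captured RNA molecule carries a unique molecular identifier (UMI). The UW library pooled the corneal cells of 4 normal, unwounded mice. The W library pooled those of 4 mice taken 24 hours after the central epithelium, marked with a trephine, had been scraped off so as to spare the stroma and the wound treated with ofloxacin. The study's methods give male mice of 6 to 8 weeks, name no strain and name no transgene or knockdown for these 2 groups. Each condition is 1 library of pooled animals and was not repeated. The study's methods describe assigning the cells to mice with Souporcell, and no assignment to mice was used here. No test could therefore be made between UW and W, and every interval below covers counting error only.

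S100 proteins are small EF-hand proteins that bind calcium and then grip other proteins. S100a8 and S100a9 pair to form calprotectin, a protein that neutrophils hold in bulk, that starves microbes of zinc and manganese and that acts as an alarm signal through Tlr4 once outside the cell. S100a7a is the mouse relative of psoriasin, an antimicrobial protein of stratified epithelia. S100a4 binds non-muscle myosin and is known from motile cells, S100a10 and S100a11 bind annexins, S100a6 is a cell-cycle linked protein also called calcyclin, and S100a14 is found mainly in epithelia.

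The members lie on chromosome 3 in build GRCm38.p6 of RefSeq, in a cluster of S100 genes. In order they are S100a14 (chr3:90526849-90528837), S100a4 (chr3:90603770-90606045), S100a6 (chr3:90612894-90614414), S100a7a (chr3:90651925-90658130), S100a8 (chr3:90669071-90670034) and S100a9 (chr3:90692630-90695721), and then, farther along, S100a11 (chr3:93520496-93526288) and S100a10 (chr3:93555117-93564645). The RefSeq promoter table held 6 of the 8, all but S100a10 and S100a14. The 250 bases before the start that the table uses for the calprotectin pair, S100a7a and S100a11 are shown, 5′ to 3′ on the gene's own strand, because the first pair and S100a7a carry the largest differences between epithelial clusters in UW below, and S100a11 stands for the abundant members. The S100a7a window lies inside the gene's span given above, because the table takes a start farther along than the first base of the span. Capitals mark letters that match one of 4 motifs on either strand.
S100a8 promoter, chr3:90668821-90669070, plus strand: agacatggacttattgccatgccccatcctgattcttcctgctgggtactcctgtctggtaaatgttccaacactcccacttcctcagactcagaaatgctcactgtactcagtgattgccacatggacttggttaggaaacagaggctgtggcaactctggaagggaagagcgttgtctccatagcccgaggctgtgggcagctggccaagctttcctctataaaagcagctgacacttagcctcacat
S100a9 promoter, chr3:90695722-90695971, minus strand: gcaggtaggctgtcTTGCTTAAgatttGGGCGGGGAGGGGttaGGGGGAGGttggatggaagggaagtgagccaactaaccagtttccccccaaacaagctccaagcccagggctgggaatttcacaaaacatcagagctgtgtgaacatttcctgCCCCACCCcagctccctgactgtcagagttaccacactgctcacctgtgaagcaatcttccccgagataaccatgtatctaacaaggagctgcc
S100a7a promoter, chr3:90654052-90654301, plus strand: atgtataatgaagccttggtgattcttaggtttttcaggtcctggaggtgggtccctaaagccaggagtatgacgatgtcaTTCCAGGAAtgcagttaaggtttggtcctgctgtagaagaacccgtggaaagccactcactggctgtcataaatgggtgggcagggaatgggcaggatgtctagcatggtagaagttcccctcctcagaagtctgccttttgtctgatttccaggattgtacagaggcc
S100a11 promoter, chr3:93520246-93520495, plus strand: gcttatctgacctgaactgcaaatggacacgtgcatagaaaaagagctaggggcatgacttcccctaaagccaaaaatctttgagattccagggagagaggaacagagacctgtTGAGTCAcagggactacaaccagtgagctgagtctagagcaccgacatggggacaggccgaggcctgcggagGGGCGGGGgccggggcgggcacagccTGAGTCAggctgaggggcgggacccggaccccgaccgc
The motifs searched were AP-1 (TGANTCA), STAT (TTCNNNGAA), C/EBP (TTGCNNAA) and KLF (CCNCNCCC). The S100a9 window held 1 C/EBP match, with its first base at position -236 from the start, and 4 KLF matches at -223, -218, -207 and -94, of which the first and second overlap. S100a7a held 1 STAT match at -169, S100a11 held 2 AP-1 matches at -136 and -38 and 1 KLF match at -64, and S100a8 held none of the 4 motifs. Of 32851 promoter windows of the same length, 6.75% held the AP-1 letters, 7.02% the STAT letters, 9.56% the C/EBP letters and 45.9% the KLF letters. These matches describe the letters of this window and no more.

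The UW library held 16450 cells with 367166822 UMIs and the W library 12417 cells with 289586482 UMIs, at medians of 22014 and 20290.0 UMIs per cell. The deposited table numbers clusters and names none. By markers and leading genes, clusters 1 (Pygl, Dapl1) and 4 (Dsg1a, Krt16) were suprabasal-like, 6 (Psca, Krt78) and 7 (Lce3a, Krt23) superficial-like, 5 conjunctiva-like (Krt4, Krt19, Krt8), 8 mitotic-like (Top2a, Mki67) and 11 S-phase-like (Mcm3, Uhrf1). Clusters 2, 3 and 9 are given by number. Cluster 3 had Krt18 and Itgb4 among its leading genes, cluster 9 was led by Wfdc18, Dlk2 and Wnt10a and cluster 2 by Ly6g6c and Spink5. These 10 clusters form the epithelium below, 13501 UW and 8507 W cells. Cluster 0 was stroma-like (Kera), cluster 13 neutrophil-like (Clec4d, Hdc) and cluster 15 monocyte-like (Lyz2, Fcgr1), while clusters 10 (Penk, Myoc), 14 (H2-Aa, C1qa) and 16 (Cd3g, Gzma, Mcpt4) keep their numbers. Clusters 13 to 17 held 1559 W cells and 15 UW cells, so the members' immune levels are levels of W. The libraries shared 52 cell barcodes, 5 of them in the same cluster, and leaving these cells out gave S100a9 a pooled log2 ratio of 4.62 in place of 4.61 and left those of the other 7 as they were.

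The level of a member is its UMIs in a cluster of a library per 1000000 UMIs counted there (CPM). Parentheses hold 95% intervals, exact Poisson ones for levels. Counts are of 3′ ends, so transcript length does not enter when levels of different genes are set side by side. Differences are log2 ratios of CPM, W over UW. A member is counted as past the fold at a log2 ratio of 1 or more, among genes with at least 20 counts in both libraries together and at least 10 CPM in either, and the shares of all such genes past the fold upward and downward are given as the background. A gene well under 10 CPM in UW can pass only through its W level and is then counted upward by construction, in the background too. Examples are S100a8, S100a4 and S100a7a in cluster 3 (0.671, 4.58 and 4.85 CPM in UW) and in cluster 11 (0.692, 4.62 and 3.92 CPM).

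All 8 members were past the fold upward in cluster 3 (background 10.4% upward, 9.60% downward) and in S-phase-like cluster 11 (8.99%, 7.97%). In cluster 1, 7 of 8 were past it (8.43%, 9.49%), and in mitotic-like cluster 8 it was 6 of 7 tested (6.27%, 7.99%). It was 5 of 8 in cluster 2 (6.44%, 13.1%), 5 of 8 in cluster 4 (7.44%, 13.6%) and 5 of 7 in cluster 9 (6.65%, 7.01%). The counts were lowest in the superficial-like and conjunctiva-like cells, with 4 of 8 in cluster 6 (9.93%, 9.68%), 3 of 8 in cluster 7 (15.2%, 7.29%) and 3 of 7 in cluster 5 (6.05%, 6.52%). Outside the epithelium 4 of 7 were past the fold in stroma-like cluster 0 (4.23%, 5.27%) and 3 of 7 in cluster 10 (3.59%, 3.44%). S100a8, S100a9 and S100a4 were the 3 in clusters 5, 7 and 10 and were past the fold in all 12 clusters. No member was past the fold downward in any of the 12. The largest shift that the other scalings put on all genes of a cluster was 0.41 on the log2 scale, so the direction of these 3 genes did not turn on the scaling. The counts held with TMM scaling and with size factors, except that cluster 1 went to 5 of 8, S100a7a (1.05 to 0.92) and S100a10 (1.03 to 0.91 with TMM) being lost, and that size factors added S100a14 (0.89 to 1.01) in cluster 10. Other calls close to the fold were S100a11 in cluster 2 (1.01), S100a10 in cluster 9 (1.03) and S100a10 in cluster 11 (1.05), which were at 1.04 or more under both scalings. With TMM the background became 8.67% upward and 18.3% downward in cluster 7, 7.76% and 13.5% in cluster 6, 6.82% and 12.6% in cluster 1, 7.99% and 6.10% in cluster 8, 9.20% and 5.06% in cluster 9, 5.27% and 3.56% in cluster 0 and 4.39% and 2.62% in cluster 10.

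**Figure D1:**
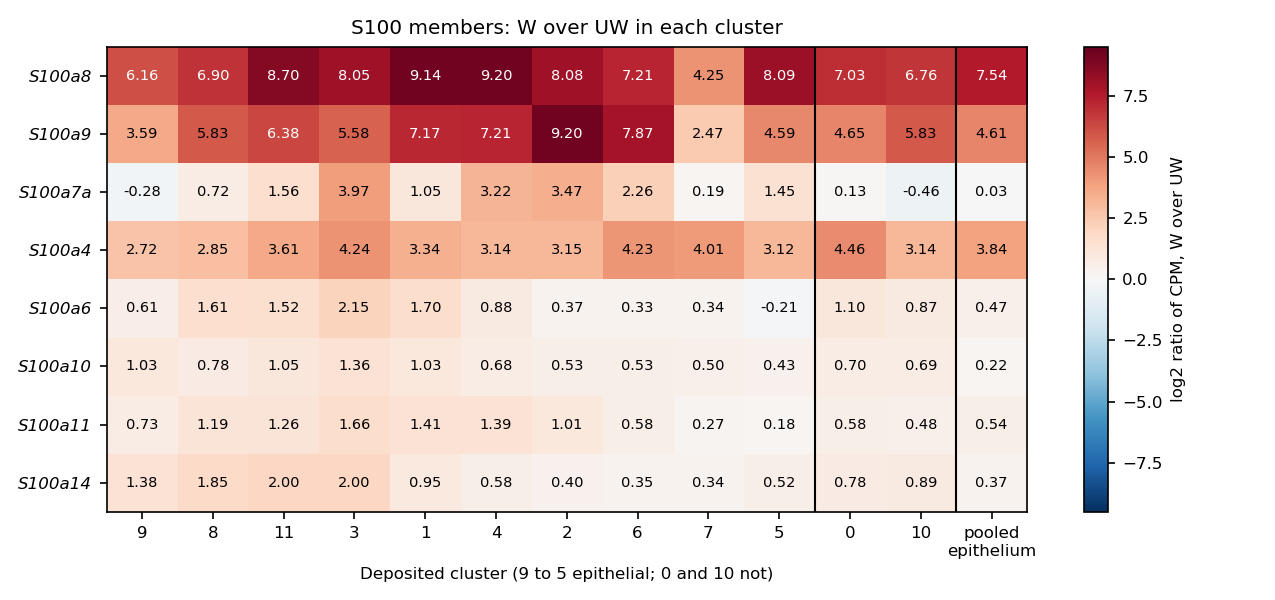
Log2 ratio of CPM, W over UW, of each member (rows) in the 10 epithelial clusters, in clusters 0 and 10 and in the pooled epithelium (columns), with red for higher in W. S100a8, S100a9 and S100a4 are red in every column, and S100a7a runs from -0.46 in cluster 10 to 3.97 in cluster 3.

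S100a8 was close to absent from the UW epithelium and present in every cluster of the W epithelium. Its UW level ran from 0.185 CPM (0.0800 to 0.365) in cluster 4 to 3.72 CPM (3.12 to 4.40) in cluster 7, and its W level from 64.8 CPM (60.8 to 69.0) in cluster 6 to 288 CPM (281 to 296) in cluster 11. The lowest W cluster was thus far above the highest UW cluster. In the pooled epithelium the level went from 0.838 CPM (0.742 to 0.942) in UW to 156 CPM (154 to 158) in W, a ratio of 186 (166 to 210.3) or 7.54 on the log2 scale. The log2 ratio was highest in suprabasal-like clusters 4 (9.20) and 1 (9.14) and lowest in superficial-like cluster 7 (4.25), which had the highest UW level. The highest ratios rest on 8 and 15 UW counts. The W levels were ordered, from high to low, 11, 8, 9, 3, 1, 4, 2, 5, 7, 6, so that the dividing clusters 11 and 8 stood at the top, and 3 of the 9 neighbouring pairs in that order had overlapping intervals (9 and 3, 5 and 7, 7 and 6). In cluster 10, with 2 counts in UW and 57.0 CPM in W, it was 108-fold higher (36.9 to 528) with the UW count set to the limit of 3.

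S100a9, the partner of S100a8 in calprotectin, was also higher in W in all 10 epithelial clusters but was arranged differently. In UW it stood at 151 CPM (147 to 155) in superficial-like cluster 7 and at 26.1 CPM (24.2 to 28.1) in conjunctiva-like cluster 5, and at 1.65 to 14.3 CPM in the other 8. In W it ran from 173 CPM (168 to 178) in cluster 9 to 969 CPM (956 to 982) in cluster 2. The ratio was largest in cluster 2, where 1.65 CPM in UW became 969 CPM (log2 ratio 9.20), and smallest in cluster 7, at 835 CPM in W (2.47). In the pooled epithelium it went from 22.1 CPM (21.6 to 22.6) to 541 CPM (538 to 543), a ratio of 24.5 (23.9 to 25.1). With every cluster weighing the same the mean log2 ratio was 5.99, in place of 4.61 pooled. The order in W was 2, 7, 6, 4, 5, 1, 11, 8, 3, 9, in which only clusters 4 and 5 overlapped. The epithelial clusters with the highest summed S100a9 were thus not those with the highest S100a8.

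**Figure D2:**
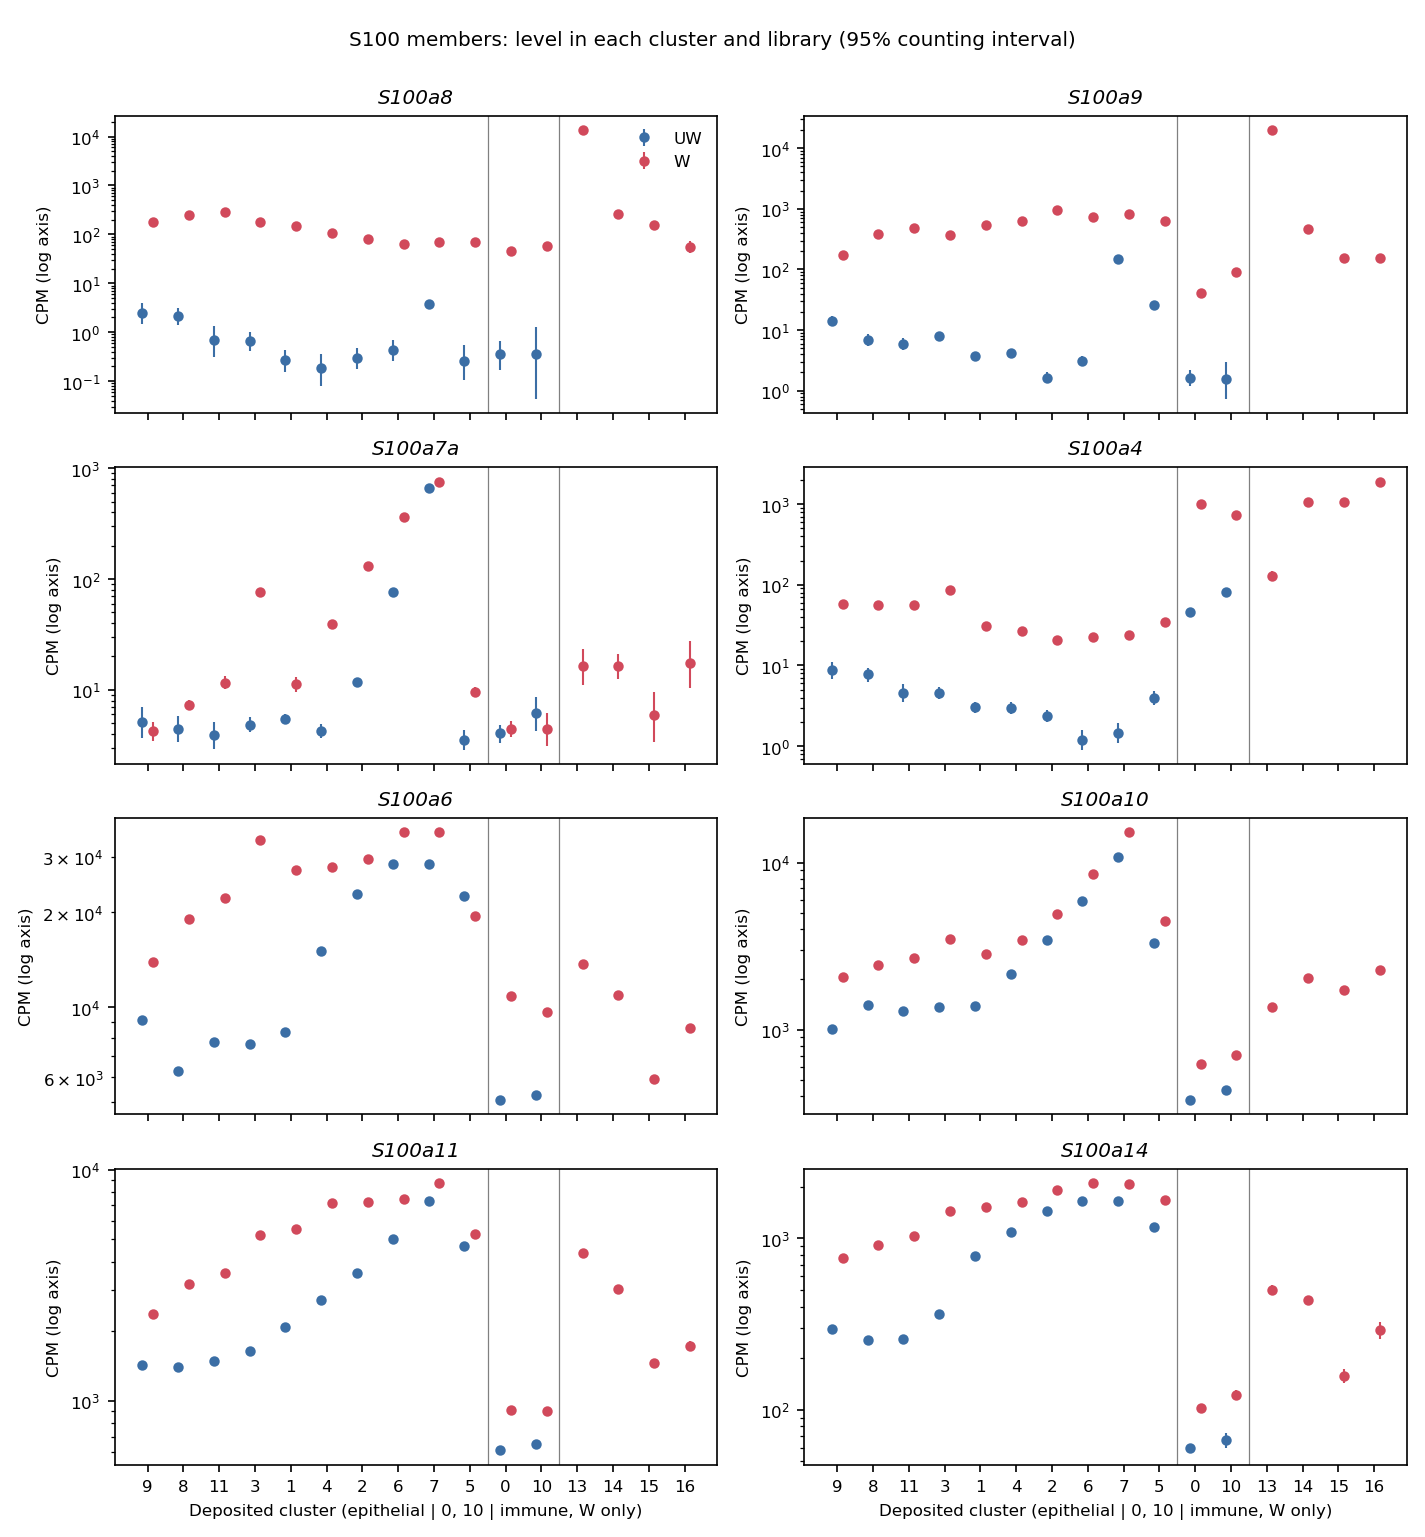
CPM on a log axis of each member in each deposited cluster, UW in blue and W in red, with 95% Poisson intervals. The first 10 clusters are epithelial, then come clusters 0 and 10 and, to the right, immune clusters with W values only. In the S100a8 and S100a9 panels all W points of the epithelium lie above the UW points of the same cluster, and neutrophil-like cluster 13 stands at 13612 and 19963 CPM.

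The partners of calprotectin were not counted in a fixed proportion. In W there were 0.0829 UMIs of S100a8 per UMI of S100a9 in cluster 2, 0.0847 in cluster 7 and 0.0885 in cluster 6, against 0.585 in cluster 11, 0.643 in cluster 8 and 1.03 in cluster 9. Neutrophil-like cluster 13 had 0.682, above clusters 11 and 8 and below cluster 9. As a share of the UMIs of the pair, S100a8 made up 7.65% in cluster 2, 40.5% (40.2 to 40.9) in cluster 13 and 50.8% (49.7 to 51.8) in cluster 9. In the UW epithelium it made up 3.66% (3.25 to 4.11) and in the W epithelium 22.4% (22.2 to 22.6).

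Shares of cells with a UMI were read after thinning, because cells differed in depth. With each cell thinned to 5000 UMIs, which left out 367 UW and 176 W epithelial cells, 0.206% of UW and 26.9% of W epithelial cells had an S100a8 UMI, and 3.44% and 54.6% had an S100a9 UMI. Unthinned, the shares were 0.955% and 52.6% for S100a8 and 8.79% and 81.8% for S100a9. Both transcripts were seen in 19.2% of thinned W epithelial cells, S100a9 alone in 35.4%, S100a8 alone in 7.68% and neither in 37.7%. The share with both was highest in cluster 11 (34.5%) and cluster 8 (29.9%) and lowest in cluster 5 (12.3%). In UW cluster 7 the S100a9 UMIs sat in few cells: 15.5% of its thinned cells had one, and the 10% of cells with the most held 92.8% of them, with up to 53 in a cell. In W cluster 7, 57.7% of cells had one and the top 10% held 61.9%.

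**Figure D3:**
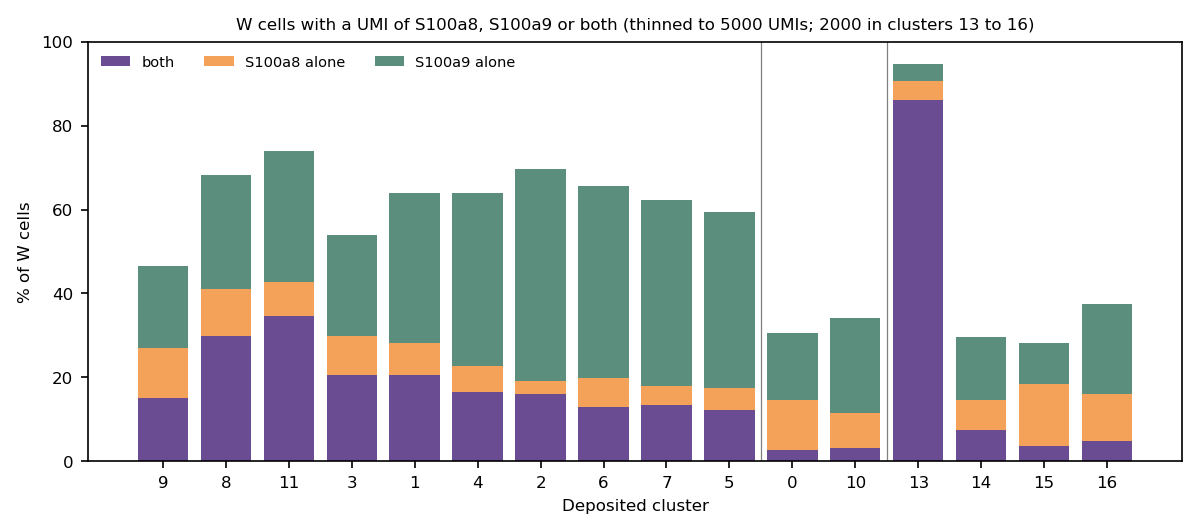
Percent of W cells of each cluster with a UMI of both S100a8 and S100a9, of S100a8 alone or of S100a9 alone, after thinning to 5000 UMIs per cell (2000 in clusters 13 to 16). Cluster 13 reaches 86.1% with both, cluster 11 34.5%, and clusters 0 and 10 stay at 2.69% and 3.23%.

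Neutrophil-like cells of W had the highest levels of both transcripts. Cluster 13 held 13612 CPM (13444 to 13782) of S100a8 and 19963 CPM (19759.5 to 20169) of S100a9. It made up 5.72% of W cells and held 37.5% (37.2 to 37.9) of the W library's S100a8 UMIs and 21.4% (21.2 to 21.6) of its S100a9 UMIs. The epithelial clusters held 56.0% (55.7 to 56.4) and 75.4% (75.2 to 75.6). These shares count each UMI in the cluster where it was found, and how much of the epithelial part could be neutrophil RNA depends on the markers used, as given next. In UW, whose library had 308 S100a8 and 7405 S100a9 UMIs in all against 66544 and 171318 in W, the epithelium held 90.6% and 99.2%.

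RNA set free by neutrophils can be caught in any droplet, so both genes were set beside markers of these cells. Of 11 neutrophil markers, 7 (Csf3r, Retnlg, Cxcr2, Clec4d, Trem1, Mrgpra2b and Ly6g) were under 0.5 CPM in UW epithelium and in UW cluster 0. Their summed level in W epithelium was 0.119% of that in cluster 13, from 0.0538% in cluster 11 to 0.342% in cluster 3, and in UW epithelium it was 0.00461%. A like share of the cluster 13 levels would be 16.2 CPM of S100a8 and 23.8 CPM of S100a9 in W epithelium, where 156 and 541 CPM were counted, 9.63 and 22.7 times as much. Every epithelial cluster was above its own such level, S100a8 by 3.70 times in cluster 7 to 39.3 times in cluster 11 and S100a9 by 5.49 times in cluster 3 to 89.2 times in cluster 2. So were W clusters 0 (5.41 and 3.32 times) and 10 (1.67 and 1.80 times), so this is not particular to the epithelium. The S100a8 margin of cluster 0 was above those of epithelial clusters 3, 5, 6 and 7. In UW the same reckoning gave 0.627 CPM of S100a8 where 0.838 CPM was counted, and S100a8 was below its level in clusters 1 to 6, at 0.406 times it in cluster 4 to 0.930 times in cluster 3. The UW share was small by choice, since the 7 markers were kept for being under 0.5 CPM there. Taking off neutrophil RNA by them moved the pooled log2 ratio of S100a8 from 7.54 to 9.38. That value has no interval and rests on the small UW remainder of 0.838 CPM less 0.627 CPM, so no larger difference is read from it. Too few UW counts were left for a ratio in 7 of the 10 epithelial clusters (1 to 6 and 11), while clusters 7, 8 and 9 had 4.12, 7.04 and 6.82. The same step left the pooled log2 ratio of S100a9 at 4.61 and moved that of cluster 2 from 9.20 to 10.24. With all 11 markers the pooled margins were 1.66 and 3.92 times, and S100a8 was below its level in clusters 5 (0.626 times) and 7 (0.520 times). Of the 4 markers left aside, Hcar2 stood at 46.6 CPM and Il1r2 at 4.97 CPM in UW epithelium, and Mmp9 at 1.05 CPM and Hdc at 0.527 CPM in UW cluster 0. Leaving out the W and UW epithelial cells with a UMI of the 7 markers left log2 ratios of 7.51 for S100a8 and 4.59 for S100a9. It kept 13453 of 13501 UW and 7967 of 8507 W cells. In cluster 13 the 7 markers summed to 3454 CPM, beside 13612 and 19963 CPM of S100a8 and S100a9. A cell can thus hold free RNA of both genes with no marker UMI, and this step cannot tell where their RNA came from. The 7 were chosen after their levels were seen.

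**Figure D4:**
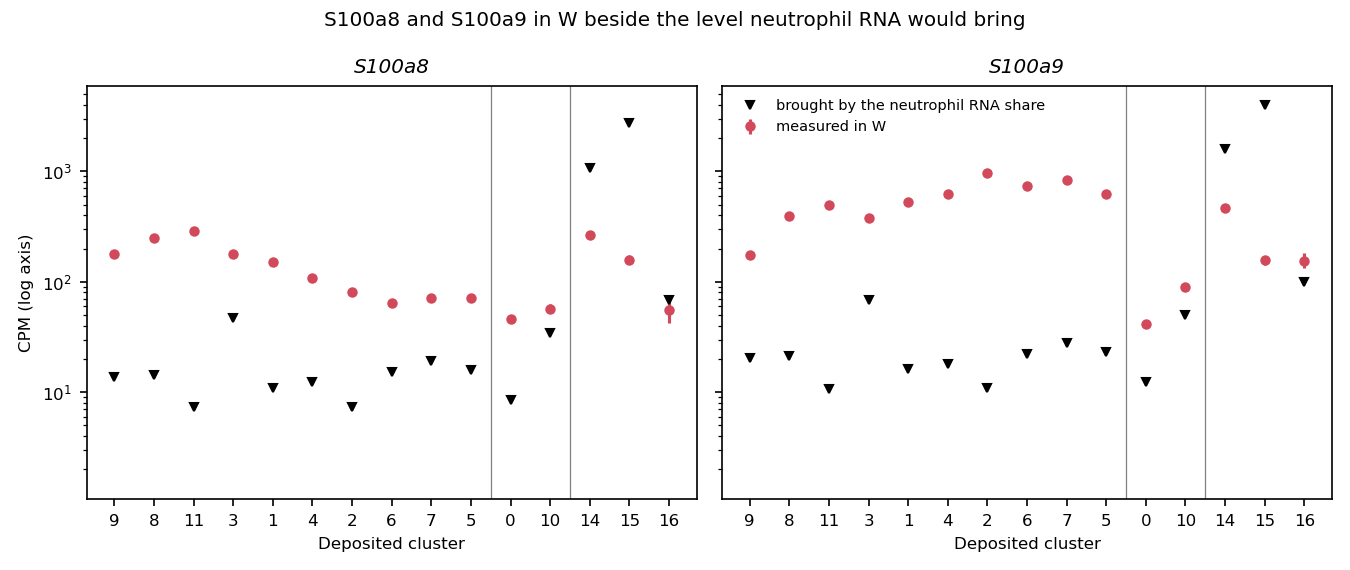
CPM on a log axis of S100a8 (left) and S100a9 (right) in the W clusters, measured (red points, 95% Poisson intervals) and as the share of neutrophil RNA read from 7 neutrophil markers would bring (black triangles). Measured values of all 10 epithelial clusters and of clusters 0 and 10 lie above the triangles. In cluster 16 S100a8 lies below its triangle (55.8 against 68.3 CPM) and S100a9 above. In clusters 14 and 15 both genes lie below, where one of the 7 markers, Clec4d, was itself at 222 and 622 CPM.

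Both transcripts were also counted in W cells that are neither epithelial nor neutrophil-like. In W, stroma-like cluster 0 had 46.0 CPM (43.7 to 48.4) of S100a8 and 41.4 CPM (39.3 to 43.7) of S100a9, cluster 16 had 55.8 CPM (42.4 to 72.2) and 155 CPM (132 to 181), and monocyte-like cluster 15 had 158 CPM (144 to 174) and 156 CPM (141 to 171). Cluster 14 was the highest of clusters 0, 10, 14, 15 and 16, with 263 CPM (247 to 280.3) and 462 CPM (440.4 to 485), its S100a8 at 169% and its S100a9 at 85.5% of the level of W epithelium, while Krt12 was at 49.0%, Krt5 at 37.6% and Perp at 28.5% of theirs. In thinned cells an S100a8 UMI was found in 14.7% of W cluster 0 cells at a median of 17588 UMIs, against 17.3% in cluster 5 at 28144 and 42.8% in cluster 11 at 35514. The S100a8 shares of clusters 5, 7, 2 and 6, at 17.3% to 19.8%, were little above that of the stroma-like cells, while for S100a9 cluster 0 had 18.6% and the epithelial clusters 34.4% or more. What part of the S100a8 UMIs in those clusters was free RNA was not tested.

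S100a7a, the psoriasin relative, was counted above background mainly in the superficial-like clusters in UW and in more clusters in W. In UW it stood at 666 CPM (658 to 675) in superficial-like cluster 7, at 75.7 CPM in superficial-like cluster 6 and at 11.8 CPM in cluster 2. The other 7 epithelial clusters had 3.53 to 5.45 CPM, near the 4.04 CPM (3.34 to 4.85) of cluster 0 and the 6.13 CPM (4.27 to 8.52) of cluster 10, and are read as background. In W the level of cluster 7 was 758 CPM (743 to 774), a log2 ratio of 0.19 that turns to -0.19 with TMM scaling. Other clusters changed more. Cluster 6 went to 362 CPM (2.26), cluster 2 to 131 CPM (3.47), cluster 4 from 4.26 to 39.6 CPM (3.22) and cluster 3 from 4.85 to 75.9 CPM (72.4 to 79.6; 3.97). In cluster 0 it was 4.44 CPM (3.74 to 5.22) and in cluster 9 4.22 CPM (3.45 to 5.11) in W. W clusters 1 and 11, at 11.3 and 11.6 CPM, were above these, with intervals that did not overlap theirs. Neutrophil-like cluster 13 was at 16.3 CPM, with an interval that overlapped both and with a median of 2509.5 UMIs per cell against 22368 and 35514 in clusters 1 and 11, and the part of free RNA in these levels was not tested.

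Other genes of the superficial-like cells were set beside it, since their free RNA would reach the same clusters. Psca, a marker of superficial cells, was at 0.862% of its cluster 7 level in UW cluster 3 and at 0.602% in W cluster 3, and Lce3a at 0.405% and 0.227%. S100a7a in cluster 3 went from 0.728% to 10.0% of its cluster 7 level. In cluster 4 it went from 0.640% to 5.22%, where Psca was at 1.03% and 1.71%. Cnfn was at 0.802% and 0.690% in cluster 3 and 0.642% and 1.43% in cluster 4, and Krt78 at 1.81% and 1.67% and at 10.1% and 10.6%, while Lypd2, at 32.3% and 22.2% and at 74.3% and 72.5%, was no marker of cluster 7 alone. In clusters 2 and 6 the share of S100a7a in W lay between those of these genes, below Psca and above Lce3a. It went from 1.78% to 17.3% in cluster 2, where Psca was at 14.7% and 18.5%, Krt78 at 63.3% and 29.6%, Cnfn at 4.61% and 7.29% and Lce3a at 0.366% and 0.320%. In cluster 6 it went from 11.4% to 47.7%, where Psca was at 72.0% and 75.8%, Krt78 at 168% and 89.3%, Cnfn at 19.9% and 51.6% and Lce3a at 1.10% and 3.13%. Thinned to 5000 UMIs, 1.81% of UW and 17.6% of W cluster 3 cells had an S100a7a UMI, and 6.99% and 38.6% unthinned, while cluster 0 stayed at 1.81% and 1.87%.

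The pooled epithelium did not show these differences. S100a7a was at 87.3 CPM (86.3 to 88.4) in UW and 88.9 CPM (87.7 to 90.1) in W, a log2 ratio of 0.03, although its log2 ratio was above 1 in 7 of the 10 clusters, in cluster 5 at a level below the 10 CPM filter and in cluster 1 at 0.92 with TMM scaling. The pooled value turns to -0.19 with TMM scaling. The clusters where it was highest, 6 and 7, held 1533 and 1511 UW cells but 652 and 528 W cells, so the pooled value mixes the level per cluster with the make-up of the library. With every cluster weighing the same, the mean log2 ratio was 1.76 for S100a7a, 1.04 for S100a14, 0.97 for S100a11, 0.93 for S100a6 and 0.79 for S100a10, against 0.03, 0.37, 0.54, 0.47 and 0.22 pooled. Pooled, 3 of 8 members were past the fold (background 12.5% upward, 7.83% downward). By the mean over clusters it was 5 of 8 (8.30%, 5.55%), of which S100a14 is at 0.99 with TMM scaling and no longer counted. The median of the members' pooled log2 ratios was 0.51, beside 0.05 over 7456 genes.

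S100a4, the myosin-binding member, had its largest log2 ratio in stroma-like cluster 0, at 4.46 (4.38 to 4.54). That interval overlapped those of epithelial clusters 3, 6 and 7, and cluster 10 was at 3.14. In stroma-like cluster 0 it was at 45.7 CPM (43.3 to 48.3) in UW and 1007 CPM (996 to 1018) in W, a ratio of 22.0 (20.8 to 23.3), and in cluster 10 at 82.5 and 727 CPM, a ratio of 8.81 (8.02 to 9.70). A UMI was found in 84.2% of thinned W and 15.9% of thinned UW cells of cluster 0, and in 94.4% and 30.9% unthinned. Cluster 0 held 55.4% (55.0 to 55.8) of the S100a4 UMIs of W. The immune clusters of W other than the neutrophil-like one were as rich, with 1068 CPM in monocyte-like cluster 15, 1076 CPM in cluster 14 and 1873 CPM (1790.3 to 1958) in cluster 16, whereas neutrophil-like cluster 13 had 130.2 CPM (114 to 148). The 7 UW cells of cluster 16 had 1171 CPM (796 to 1663) on 31 counts. Of the 6 stromal markers in cluster 0, 5 were lower in W, among them Kera (7482 CPM in UW, 2537 CPM in W) and Dcn (40495 and 22050.1 CPM), and Col3a1 was higher (14.8 and 24.5 CPM).

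In the epithelium S100a4 was low in both libraries and higher in W in all 10 clusters. Its level went from 1.19 to 8.80 CPM in UW to 20.9 to 86.4 CPM in W. The largest log2 ratios were in cluster 3 (4.58 to 86.4 CPM, 4.24) and cluster 6 (1.19 to 22.4 CPM, 4.23), with overlapping intervals, and the smallest was in cluster 9 (2.72). Stromal RNA stood beside it: the summed stromal markers were at 0.384% of their cluster 0 level in UW epithelium and at 0.850% in W, which would bring 0.176 and 8.56 CPM of S100a4 where 3.10 and 44.4 CPM were counted. With these counts taken off, the pooled log2 ratio was 3.62 in place of 3.84. Clusters 9, 8 and 11 stood at the top in UW and 3, 9, 11 and 8 in W, although 7 of the 9 neighbouring pairs overlapped in each order.

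S100a6, or calcyclin, was the most abundant of the 8 in every one of these 12 clusters and took up from 0.507% of the UMIs in UW cluster 0 to 3.60% in W cluster 7. In UW it stood highest in the superficial-like clusters, with 28529 CPM in cluster 6 and 28504 CPM in cluster 7 and 6280.3 to 9101 CPM in clusters 8, 3, 11, 1 and 9. In W, 4 of these 5 low clusters were past the fold. Cluster 3 went from 7659 CPM (7629 to 7689) to 33878 CPM (33802 to 33954), a ratio of 4.42, cluster 1 from 8336 to 27158 CPM, cluster 8 from 6280.3 to 19124 CPM and cluster 11 from 7755 to 22254 CPM. Cluster 9 went from 9101 to 13893 CPM, a log2 ratio of 0.61, less than the 0.88 of cluster 4. Thinned to 5000 UMIs, the mean cell of cluster 3 held 38.5 S100a6 UMIs in UW and 177 in W, and that of cluster 7 held 142 and 181. Conjunctiva-like cluster 5 was the exception, at 22481 CPM (22424 to 22538) in UW and 19454 CPM (19409 to 19499.6) in W, a log2 ratio of -0.21. In stroma-like cluster 0 it was at 5074 and 10879 CPM, past the fold at 1.10.

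S100a11 and S100a10, the annexin partners, and S100a14, the epithelial member, were also lowest in the dividing clusters or in cluster 9 and highest in the superficial-like ones. S100a11 was lowest in cluster 8 at 1399.8 CPM and highest in cluster 7 at 7279.9 CPM in UW, and at 2366 CPM in cluster 9 and 8755 CPM in cluster 7 in W. Its log2 ratio was 1.66 in cluster 3, 1.41 in cluster 1, 1.39 in cluster 4 and 0.18 in cluster 5. S100a10 climbed from 1008 CPM in cluster 9 to 10813 CPM (10779 to 10847) in cluster 7 in UW and from 2058 to 15298 CPM (15228 to 15368) in W, with log2 ratios from 0.43 in cluster 5 to 1.36 in cluster 3. S100a14 went from 359.8 to 1439 CPM in cluster 3 and from 258 to 1030.5 CPM in cluster 11, log2 ratios with intervals of 1.97 to 2.03 and 1.94 to 2.05, but from 1649 to 2083 CPM in cluster 7 (0.34). In cluster 7 the ratios of S100a6, S100a11, S100a14 and S100a7a, all between 0.19 and 0.34, turn to between -0.04 and -0.19 with TMM scaling, which shifts all genes there by 0.38 on the log2 scale, so no direction is read for them.

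The levels of the members differed less between epithelial clusters in W than in UW. The same spread was not taken over all genes, so this is not read as particular to the members. The highest cluster was 91.5 times the lowest for S100a9 in UW and 5.60 times in W. For S100a8 it was 20.1 and 4.44 times, for S100a10 10.7 and 7.43, for S100a4 7.39 and 4.13, for S100a14 6.49 and 2.72, for S100a11 5.20 and 3.70, and for S100a6 4.54 and 2.59. The lowest S100a8 level of UW, in cluster 4, was 8 counts, at 0.406 times the level read from the 7 neutrophil markers. The value of 20.1 is therefore not a firm one, and the part of free RNA in the lowest W levels was not tested. S100a7a, at 189 and 179.6 times, was the member whose ratio of highest to lowest moved least. Its lowest levels, 3.53 CPM in UW cluster 5 and 4.22 CPM in W cluster 9, were near those of cluster 0, so both ratios set cluster 7 against background. The median over the 10 clusters went from 4.98 to 25.6 CPM. These are ratios within a library and do not turn on the scaling between libraries. Together the 8 members took 2.60% of all UMIs of UW epithelium and 3.60% of W epithelium, from 1.10% to 4.47% in cluster 3, 4.91% to 6.38% in cluster 7 and 3.16% in both libraries in cluster 5.

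The binding partners were counted beside the members. Anxa2, which S100a10 binds, went from 1293 to 1757 CPM in cluster 3 and from 3301 to 3582 CPM in cluster 7, and S100a10 UMIs per Anxa2 UMI in cluster 7 went from 3.28 to 4.27. The ratio was higher in W in all 12 clusters, from 0.717 to 1.41 in cluster 0 and from 1.02 to 1.81 in cluster 5, and being a ratio within a library it does not turn on scaling. Anxa1, a partner of S100a11, was at 931 and 1991 CPM in the epithelium (log2 ratio 1.10). S100a11 UMIs per Anxa1 UMI were higher in W in clusters 1, 3, 8, 9 and 11 (1.20 to 1.87 in cluster 3), much the same in cluster 4 (3.08 and 3.09) and lower in clusters 2, 5, 6 and 7 (9.65 to 3.99 in cluster 6), where Anxa1 went from 518 to 1876 CPM.

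Levels in stroma-like cells separated the members. In cluster 0 the keratin Krt12 stood at 5.81% of its epithelial level in UW and 5.96% in W, Krt5 at 6.66% and 6.67% Perp at 5.11% and 6.20% and Pax6 at 7.51% and 8.76%. Aldh3a1, also chosen as an epithelial marker but known from stromal keratocytes too, stood at 77.5% and 82.8%. S100a14, at 5.46% and 7.30%, S100a7a, at 4.63% and 4.99%, and S100a9, at 7.49% and 7.67%, were near the values of the first 4 markers. S100a6 at 28.7% and 44.4%, S100a11 at 17.5% and 17.9% and S100a10 at 10.5% and 14.8% were above those 4 and below Aldh3a1. S100a8 was at 42.0% in UW, on 10 counts, and at 29.5% in W. Whether the S100a9, S100a14 and S100a7a UMIs of cluster 0 are free epithelial RNA was not tested.

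**Figure D5:**
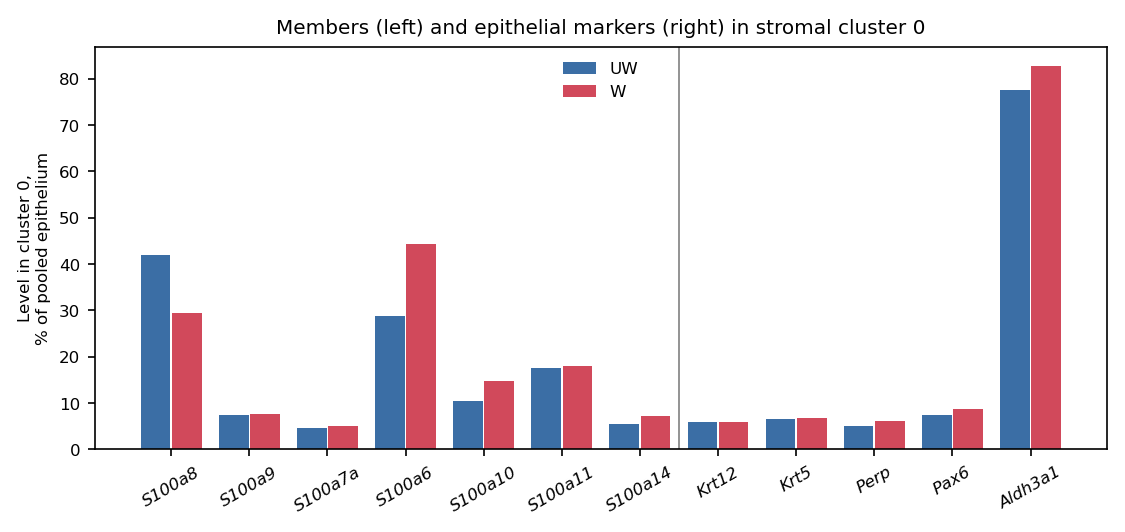
Level of 7 members and of 5 epithelial markers in stroma-like cluster 0, as a percent of the level in the pooled epithelium of the same library (UW blue, W red, bars from 0). S100a7a, S100a9 and S100a14 lie at 4.63% to 7.67%, close to 4 of the markers on the right, and S100a6 and S100a8 lie far above those 4. The fifth marker, Aldh3a1, is higher than every member shown, at 77.5% and 82.8%. S100a4 is left out because its level in cluster 0 was above that of the epithelium.

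Of the listed S100 genes that are not members, S100a16 was the most abundant in the epithelium. In the pooled epithelium 4 of the 8 listed genes present could be tested and 1 was past the fold (background 12.5% upward, 7.83% downward), a count not read as a result about the list. It was S100a3, a neighbour of S100a4, which went from 23.6 to 53.0 CPM (log2 ratio 1.17), though its annotated span contains S100a2 and their counts may be mixed. S100a13 went from 19.8 to 38.3 CPM (0.95), S100a16 from 1127 to 976 CPM (-0.21), and S100a1 from 50.2 to 38.9 CPM (-0.37). Between S100a4 and S100a6 on the chromosome lies S100a5, which had 1 UW and 2 W counts in the epithelium. Of 7 listed fused S100 genes such as Flg and Crnn, 5 were in the table and 0 passed the filter. S100a2, outside the lists and chosen after its values were seen, was at 1.62 and 5.44 CPM.

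Of 14 annexins and intracellular partners, all tested, 3 were past the fold upward and 2 downward, with a median of 0.10. Over all genes of the pooled epithelium these shares were 12.5% upward and 7.83% downward, and next to them neither this count nor those of the lists below is read as a result about a list. Anxa3 had the largest log2 ratio (27.6 to 111 CPM, 2.01), with Ahr (1.58) and Anxa1 (1.10) next, and Anxa11 the lowest (129 to 54.2 CPM, -1.25), with Anxa6 at -1.11. Anxa2 was the most abundant, at 2555 and 2122 CPM. Cacybp, the binding partner named for S100a6, was at 77.8 and 101 CPM (0.37), and Myh9, the myosin that S100a4 binds, at 104 and 127 CPM (0.29).

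Of 11 listed receptors of calprotectin and partners in their signalling, 5 could be tested in the epithelium and none was past the fold, with Ly96 highest (17.6 to 28.6 CPM, 0.70) and Nptn lowest (-0.34), and Bsg most abundant at 340.3 and 399 CPM. Tlr4 was at 8.76 CPM in UW epithelium, 11.6 CPM in W epithelium and 56.7 CPM in neutrophil-like cluster 13, and Cd14 at 1.21, 6.02 and 1635 CPM. Ager had 16 and 24 counts in the epithelium. None of the 6 NADPH oxidase genes reached the filter in the epithelium, and Cyba was highest at 1448 CPM in monocyte-like cluster 15.

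Among 15 inducers of S100 alarmins and their receptors, 5 could be tested. Tnfrsf1a, the TNF receptor, was past the fold upward (54.9 to 122 CPM, 1.15) and Tnf itself downward (26.4 CPM in UW, log2 ratio -1.25), and Il1a went from 59.5 to 115 CPM (0.94). The highest level among them was that of Il1b in cluster 13, at 2736 CPM, beside 0.462 and 5.78 CPM in the epithelium. Of 12 transcription factors tied to S100a8 and S100a9, 10 could be tested and 1 was past the fold, Cebpa (9.32 to 27.7 CPM, 1.57). Junb had the lowest ratio (2417 to 1345 CPM, -0.84), and Cebpb reached 4174 CPM in cluster 13.

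The genes most like each member were sought over 28 sums of cluster and library with at least 50 cells, by Pearson's r of log2(CPM + 1). These sums share 2 libraries, so r is a description. S100a8 was most like S100a9 (r = 0.927), and the reverse held. S100a11 was most like S100a14 (0.952) and S100a6 most like S100a11 (0.917), and S100a14 and S100a6 had r = 0.899. S100a7a was most like Cnfn (0.915), a cornified-envelope gene, S100a14 like Tmem40 (0.969), S100a10 like Rassf7 (0.949) and S100a4 like H2-M3 (0.960), with Ccl2 at 0.930. Over the 20 epithelial sums alone, S100a8 was most like Mmp3 (0.974), Lgals1 (0.974) and Bst2 (0.973), and Mmp3 was also among those most like S100a9 (0.930). There S100a8 and S100a4 had r = 0.943, against 0.628 over all sums.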

How the data were processed

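Cells were dissociated, loaded on the 10x Genomics droplet platform and sequenced as 1 library per condition. The study's methods name the V2 kit and the labels v3. The UMI counts per gene and cell were made by the authors with Cell Ranger 3.1.0 and deposited without normalization. The study's methods name an mm10 reference, and the submitters' processing notes list mm9. The files hold no coordinates, so none was converted, and those printed are RefSeq's on GRCm38.p6. The authors state filters of 500 to 8000 genes per cell, at most 10% mitochondrial UMIs and genes in at least 5 cells, and identified doublets with DoubletFinder. The deposited table of cells, made by the authors with Seurat, gave clusters and doublet calls, and cells called doublets in a first run were left out in 1 alternative.

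Counts were summed per deposited cluster and library in Python 3.11.15 (numpy 2.4.6, scipy 1.17.1, pandas 2.3.3), with exact Poisson and Clopper-Pearson 95% intervals and exact conditional intervals for ratios. Sums under 3 counts were set to 3, which concerned S100a8 in UW cluster 10. Clusters were named from marker lists where the leading genes bore the name out. Thinning drew 5000 UMIs per cell, 2000 in clusters 13 to 17. TMM (edgeR 4.0.16) and median-of-ratios factors (DESeq2 1.42.0, R 4.3.3) served as alternatives. The computations were tested on simulated counts. Named genes are the 8 members and, of each list, those past the fold, with the largest and smallest log2 ratio or the highest CPM; Il1a, Ahr, Tlr4, Cd14, Ager, Cacybp and Myh9, and some partners, were added after their values were seen. The members and lists were chosen with earlier results of these data known.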

Additional observations from a re-analysis of the deposited data

Results flagged for a closer look

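S100a6 had a log2 ratio of -0.21 in conjunctiva-like cluster 5 (22481 CPM in UW, 19454 CPM in W), where the other 9 epithelial clusters were between 0.33 and 2.15. It was singled out because the direction in this cluster was opposite to that in the others. In cluster 7 the positive value of 0.34 turns to -0.04 with TMM scaling. The difference between clusters was not tested.

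The single UW cell of neutrophil-like cluster 13 lay outside the comparisons. It had 1462 UMIs, of which 17 were S100a8 and 4 were S100a9, above the limit of 3 counts. Its barcode was not among the 52 that the libraries shared. In W the cluster 13 cells held 40.5% S100a8 among the UMIs of the pair, and this cell 81.0% (58.1 to 94.6).

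Cluster 17, with 29 W cells and no UW cell, was also outside the comparisons and held 841 S100a8 and 1107 S100a9 counts. That is 1578 and 2077 CPM, beside 13612 and 19963 CPM in cluster 13 and 46.0 and 41.4 CPM in W cluster 0. Its stromal markers stood at 102% of their cluster 0 level, and its 11 neutrophil markers at 12.4% of their cluster 13 level. S100a4 was at 1060.0 CPM there and 1007 CPM in cluster 0.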

How the results depend on the processing

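The log2 ratios in the pooled epithelium were recomputed under each alternative, and none that was past the fold changed sign or fell under it. TMM factors shifted all genes by 0.22, size factors by 0.23 and TMM over genes with at least 10 counts by 0.21 on the log2 scale. With TMM factors the values were 7.32 for S100a8, 4.40 for S100a9, -0.19 for S100a7a, 3.62 for S100a4, 0.25 for S100a6, 0.00 for S100a10, 0.33 for S100a11 and 0.15 for S100a14. With size factors they were 7.31 for S100a8, 4.38 for S100a9, -0.21 for S100a7a, 3.61 for S100a4, 0.24 for S100a6, -0.02 for S100a10, 0.31 for S100a11 and 0.13 for S100a14, and with the filtered TMM 7.33 for S100a8, 4.40 for S100a9, -0.19 for S100a7a, 3.63 for S100a4, 0.26 for S100a6, 0.00 for S100a10, 0.33 for S100a11 and 0.15 for S100a14. With each cluster weighing the same, the values that moved beyond the counting interval were 5.99 for S100a9, 1.76 for S100a7a, 3.44 for S100a4, 0.93 for S100a6, 0.79 for S100a10, 0.97 for S100a11 and 1.04 for S100a14, and 5 in place of 3 members were past the fold. After thinning they were 4.47 for S100a9, 0.15 for S100a7a, 0.66 for S100a6, 0.32 for S100a10, 0.74 for S100a11 and 0.44 for S100a14. With the stricter filter (1000 genes, 5% mitochondrial UMIs) they were 0.45 for S100a6 and 0.52 for S100a11, and without cells of the first doublet run -0.02 for S100a7a and 0.20 for S100a10. Leaving out cells with any of the 11 neutrophil markers kept 6112 of 13501 UW and 3771 of 8507 W cells and gave 7.15 for S100a8, 4.09 for S100a9, -0.10 for S100a7a, 3.98 for S100a4, 0.36 for S100a6, 0.04 for S100a10, 0.50 for S100a11 and 0.23 for S100a14. Subtracting neutrophil RNA by the 11 markers gave 4.39 for S100a4 and 0.55 for S100a11 and no value for S100a8 and S100a9, whose UW counts it used up, with Hcar2 at 46.6 CPM in UW epithelium. By the 7 markers it gave 9.38 for S100a8, on a small UW remainder and with no interval, and leaving out cells with one of the 7 gave 0.55 for S100a11. The 7-marker settings, the stromal subtraction (3.62 for S100a4) and leaving out shared barcodes were chosen after seeing the data, and the last moved none beyond its counting interval. The cause of these shifts was not tested. No paired analysis was possible because each condition is 1 library. Depth limits S100a8 most, with 279 UW epithelial counts, and the spread between mice was not analysed here.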
